A study of Homo sapiens with 12 samples.

Results

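The vacuolar ATPase (V-ATPase) and the core autophagy machinery were followed in 2 established human acute myeloid leukaemia cell lines exposed to selinexor, an oral inhibitor of XPO1, the receptor that carries many proteins out of the nucleus. The set held 35 genes, listed by symbol: 16 V-ATPase subunits and accessory proteins and 19 autophagy genes. All 35 were listed in both count tables, of 17099 genes in OCI-AML2 and 16820 in MOLM-13. Polyadenylated RNA was sequenced from 4 groups of 3 libraries each, biologically independent per the series' design text: OCI-AML2 with DMSO vehicle or 200 nM selinexor, and MOLM-13 with DMSO vehicle or 75 nM selinexor, each for 36 h. The dose therefore differs with the line, and line and dose cannot be told apart. Each group is 1 line grown in culture, so the values describe these lines only.

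The V-ATPase is a rotary proton pump that acidifies lysosomes and endosomes. Its cytosolic V1 sector hydrolyses ATP, and its membrane V0 sector carries the protons. Autophagy delivers cytoplasm to the lysosome: the ULK1 kinase complex starts the process, the class III phosphatidylinositol 3-kinase complex around PIK3C3 and BECN1 makes the lipid that WIPI proteins read, and a conjugation system led by ATG7, ATG3 and the ATG12-ATG5-ATG16L1 complex attaches ATG8 proteins (LC3 and GABARAP) to the growing membrane. Receptors such as SQSTM1 (p62) hold cargo to the ATG8 proteins. Many genes of both groups are known targets of TFEB, TFE3 and MITF, which bind the CLEAR element, a sequence built on the E-box CACGTG, and TFEB itself is exported from the nucleus by XPO1.

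RefSeq promoter windows (GRCh38.p14, 250 bases before to 50 after an annotated start of the gene) were matched for 30 of the 35 members, and ATP6V0E1, ATP6V1A, ATP6V1B2, ATP6V1C1 and ATP6V1H had no matched window. Each symbol had 1 window, the first listed, which need not be at its main start. Several windows lay inside the gene as annotated in GENCODE 29, among them those of ATG16L1, BECN1, MAP1LC3B and ATP6AP2. That of ATG5, chr6:106316217-106316516 (minus strand), did so, as the gene starts at 106325791. That of ATP6V0B, printed below, did so too, as the gene starts at 43974487. The motif counts below hold for these windows only. The letters CACGTG, which read the same on both strands, were present in 5 of the 30 windows (16.7%) and in 7.43% of all 27305 windows of the table. These 5 windows are shown because the E-box is the motif that ties the 2 groups of genes to one family of factors. They lie at chr14:55411781-55412080 (minus strand), chr3:112561913-112562212 (minus strand), chr1:43974710-43975009 (plus strand), chr16:67481108-67481407 (minus strand) and chr9:114587519-114587818 (plus strand) in the order printed, each 5′ to 3′ on the strand of the gene, with every CACGTG in capitals.
ATG14: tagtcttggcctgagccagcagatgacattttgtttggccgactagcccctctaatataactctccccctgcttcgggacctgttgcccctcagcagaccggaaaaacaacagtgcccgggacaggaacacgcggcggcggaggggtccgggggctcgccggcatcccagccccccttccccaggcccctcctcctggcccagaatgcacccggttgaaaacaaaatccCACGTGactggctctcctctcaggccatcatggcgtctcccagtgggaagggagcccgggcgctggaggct
ATG3: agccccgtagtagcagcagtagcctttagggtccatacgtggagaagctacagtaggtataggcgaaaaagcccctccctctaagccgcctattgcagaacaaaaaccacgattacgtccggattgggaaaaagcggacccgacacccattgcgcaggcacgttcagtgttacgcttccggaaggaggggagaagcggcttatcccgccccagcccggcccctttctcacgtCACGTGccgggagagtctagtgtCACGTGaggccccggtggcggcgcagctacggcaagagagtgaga
ATP6V0B: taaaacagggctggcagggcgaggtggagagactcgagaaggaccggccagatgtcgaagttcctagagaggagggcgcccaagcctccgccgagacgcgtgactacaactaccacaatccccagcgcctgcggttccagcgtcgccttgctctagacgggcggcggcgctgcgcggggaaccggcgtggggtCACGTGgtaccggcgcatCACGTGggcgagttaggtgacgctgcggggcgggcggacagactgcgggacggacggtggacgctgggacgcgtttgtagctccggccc
ATP6V0D1: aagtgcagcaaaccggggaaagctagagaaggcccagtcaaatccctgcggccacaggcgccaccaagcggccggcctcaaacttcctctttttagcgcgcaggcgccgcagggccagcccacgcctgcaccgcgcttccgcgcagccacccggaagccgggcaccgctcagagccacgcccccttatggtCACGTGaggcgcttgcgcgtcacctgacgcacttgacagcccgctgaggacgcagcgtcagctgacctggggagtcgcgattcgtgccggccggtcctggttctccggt
ATP6V1G1: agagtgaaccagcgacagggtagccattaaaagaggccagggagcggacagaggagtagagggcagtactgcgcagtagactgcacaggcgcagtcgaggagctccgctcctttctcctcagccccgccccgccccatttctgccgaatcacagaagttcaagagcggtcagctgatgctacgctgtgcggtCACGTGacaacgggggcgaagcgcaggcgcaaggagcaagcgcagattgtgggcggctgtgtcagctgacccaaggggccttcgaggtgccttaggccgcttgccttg
The E-box began at -21 in ATG14, at -18 and 6 in ATG3, at -57 and -39 in ATP6V0B, at -59 in ATP6V0D1 and at -58 in ATP6V1G1, counted from the start used for each window. ATG3, a conjugating enzyme, and ATP6V0B, a proteolipid of the V0 ring, each held 2 copies. The longer CLEAR palindrome, CACGTG with GT before it and AC after it, was in 1 of the 30 windows, that of ATP6V1G1, and in 0.381% of all windows. The FOXO motif GTAAACA, searched on both strands, was in 0 of the 30 windows and in 3.41% of all windows. The antioxidant response core TGACNNNGC, also searched on both strands, was in 5 of the 30 and in 13.6% of all windows. A match is a description of the letters and not of binding.

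Total counts per library ranged from 8114892 to 11769061, and levels are given as CPM, with library sizes adjusted within a line by the trimmed mean of M-values (TMM). A floor of 3 counts was 0.249 to 0.375 CPM, which covers counting error only. XPO1 RNA itself averaged 443 CPM with vehicle and 683 with selinexor in OCI-AML2, and 380.0 against 601 in MOLM-13. The labels call the cells leukaemic blasts, and the myeloid list had 13 and 12 of its 14 genes tested in OCI-AML2 and MOLM-13. The summed myeloid level moved with the treatment. In OCI-AML2 it was between 3795 and 3945 CPM in vehicle libraries and between 14542 and 14869 in selinexor libraries (9 genes higher, 2 lower), and between 2059 and 2146 against 4365 and 4549 in MOLM-13 (10 higher, 1 lower). LYZ (lysozyme) averaged 1735 CPM with vehicle and 9580 with selinexor in OCI-AML2 and 116 against 958 in MOLM-13, and AZU1 (azurocidin) 898 against 3192 and 1048 against 1813. The other 12 genes together were between 1246 and 1266 CPM with vehicle and between 1910 and 1980 with selinexor in OCI-AML2, and between 940 and 953 against 1662 and 1752 in MOLM-13. Not every myeloid gene rose. FCGR1A was called lower in each line, with vehicle and selinexor means of 100.3 and 76.3 CPM (OCI-AML2) and 43.8 and 25.2 (MOLM-13). MPO was called lower in OCI-AML2 (means 11.6 and 8.03 CPM) but higher in MOLM-13 (31.2 and 68.5). CSF1R was called in neither. Lists of other cell types summed to at most 91.5 CPM in any library, and CD3E, MS4A1, HBB, HBA1 and EPCAM were listed in neither table. The epithelial and fibroblast list went from between 51.7 and 60.5 CPM to between 89.1 and 91.5 in OCI-AML2 (PECAM1 higher) and from between 19.9 and 21.6 to between 47.1 and 57.6 in MOLM-13 (KRT8, KRT18 and PECAM1 higher). In OCI-AML2 the sum was nearly all PECAM1, which averaged 54.0 CPM with vehicle and 89.4 with selinexor. KRT8, KRT18, COL1A1 and COL1A2 averaged at most 0.414 CPM there, so the rise was not one of keratin or collagen genes. In OCI-AML2 the erythroid and megakaryocyte list went from between 1.08 and 1.83 to between 12.7 and 16.04 CPM (ITGA2B higher), and the lymphocyte list from between 11.3 and 13.0 to between 15.7 and 19.3 (NKG7 higher). In MOLM-13 those 2 lists overlapped between the groups, at 0.109 to 1.56 and 12.6 to 15.8 CPM. The part of these shifts in the changes of the members was not tested. In bulk RNA, fewer cells of one state and less RNA per cell cannot be told apart.

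The libraries did not record strand, so reads from exons that 2 genes share cannot be assigned by direction. In GENCODE 29 on GRCh38, 16 of the 35 members shared no exonic base with another gene, 11 shared under 10%, 6 shared 10 to 50% and 2 shared more. The last 2 also had very low counts. ATP6V0C encodes the main proteolipid of the V0 ring, and 72.1% of its exonic bases lie in AC093525.2 or AC093525.1; it had 0, 1 and 1 counts with vehicle and 2, 0 and 1 with selinexor in OCI-AML2, and 0, 1, 0 and 1, 2, 0 in MOLM-13. All 12 values are under the floor, and no fold is given. GABARAP, an ATG8 protein, has 55.7% of its exonic bases in AC120057.2 or AC120057.3, and stood at 2.06, 0.581 and 4.39 CPM with vehicle in OCI-AML2, from 20, 7 and 49 counts. These values do not show that either gene is silent, and how the counting treated shared bases was not tested. Per kilobase of exon, vehicle levels ran from 129 CPM for ATP6V1F to 1.03 for GABARAP in OCI-AML2, and from 119 for ATP6V1F to 0.0497 for ULK2 in MOLM-13, leaving out ATP6V0C. In both lines the 4 highest members per kilobase were the V-ATPase genes ATP6V1F, ATP6V0B, ATP6V1G1 and ATP6V0E1. ATP6V0B and ATP6V1G1 stood at 49.2 ± 1.23 and 49.8 ± 2.50 (SD, n = 3) in MOLM-13 and did not differ beyond their spread. ATP6V1F shares 23.7% of its exonic bases with KCP. GENCODE 29 also lists 5 pseudogenes named after ATP6V1G1, 4 after ATP6V0E1 and 4 after ATP6V0C. How reads that match such copies were counted was not tested.

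**Figure D1:**
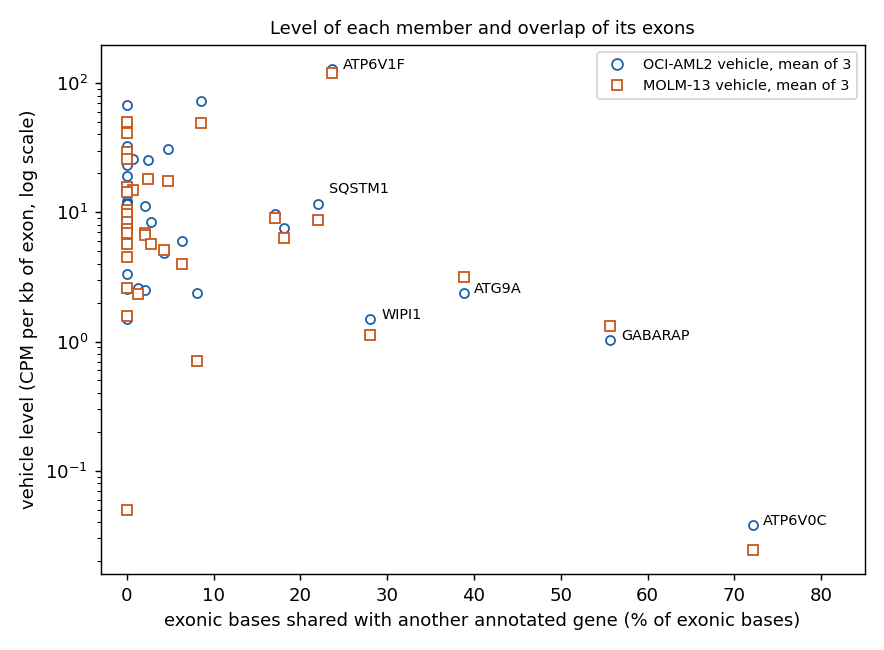
Vehicle level of each of the 35 members (CPM per kilobase of exon, log scale, mean of 3 libraries, circles OCI-AML2 and squares MOLM-13) against the percentage of its exonic bases that another annotated gene shares. ATP6V0C (72.1% shared) and GABARAP (55.7%) lie at the right with low levels, while ULK2 in MOLM-13 is the low square at 0%.

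More members rose than fell with selinexor in both lines, and most changes were under 2-fold. In OCI-AML2, 34 of the 35 members passed the filter on low counts, 18 rose and 3 fell (edgeR quasi-likelihood test, Benjamini-Hochberg adjusted p under 0.05 over all genes). In MOLM-13, 33 passed, 18 rose and 6 fell. The treatment changed much of the transcriptome, and these counts have to be read against it: 63.1% of the 12086 genes tested were called in OCI-AML2, 31.3% higher and 31.8% lower, and 63.6% of 11807 in MOLM-13, 31.8% higher and 31.8% lower. The share of members called in either direction was 61.8% in OCI-AML2, near that of all genes, and 72.7% in MOLM-13. The share that rose was 52.9% in OCI-AML2 and 54.5% in MOLM-13, and the median log2 fold change was 0.26 and 0.14, beside -0.0016 and 0.0091 over all genes tested. The 19 autophagy genes had the larger medians, 0.40 (10 rose, 1 fell of 19 tested) and 0.33 (11 rose, 2 fell of 18), and the V-ATPase genes had 0.19 (8 rose, 2 fell of 15) and 0.14 (7 rose, 4 fell of 15). The log2 fold changes ran from -0.33 to 1.06 in OCI-AML2 and from -0.31 to 0.91 in MOLM-13, and 1 member, ULK1 in OCI-AML2, rose more than 2-fold.

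**Figure D2:**
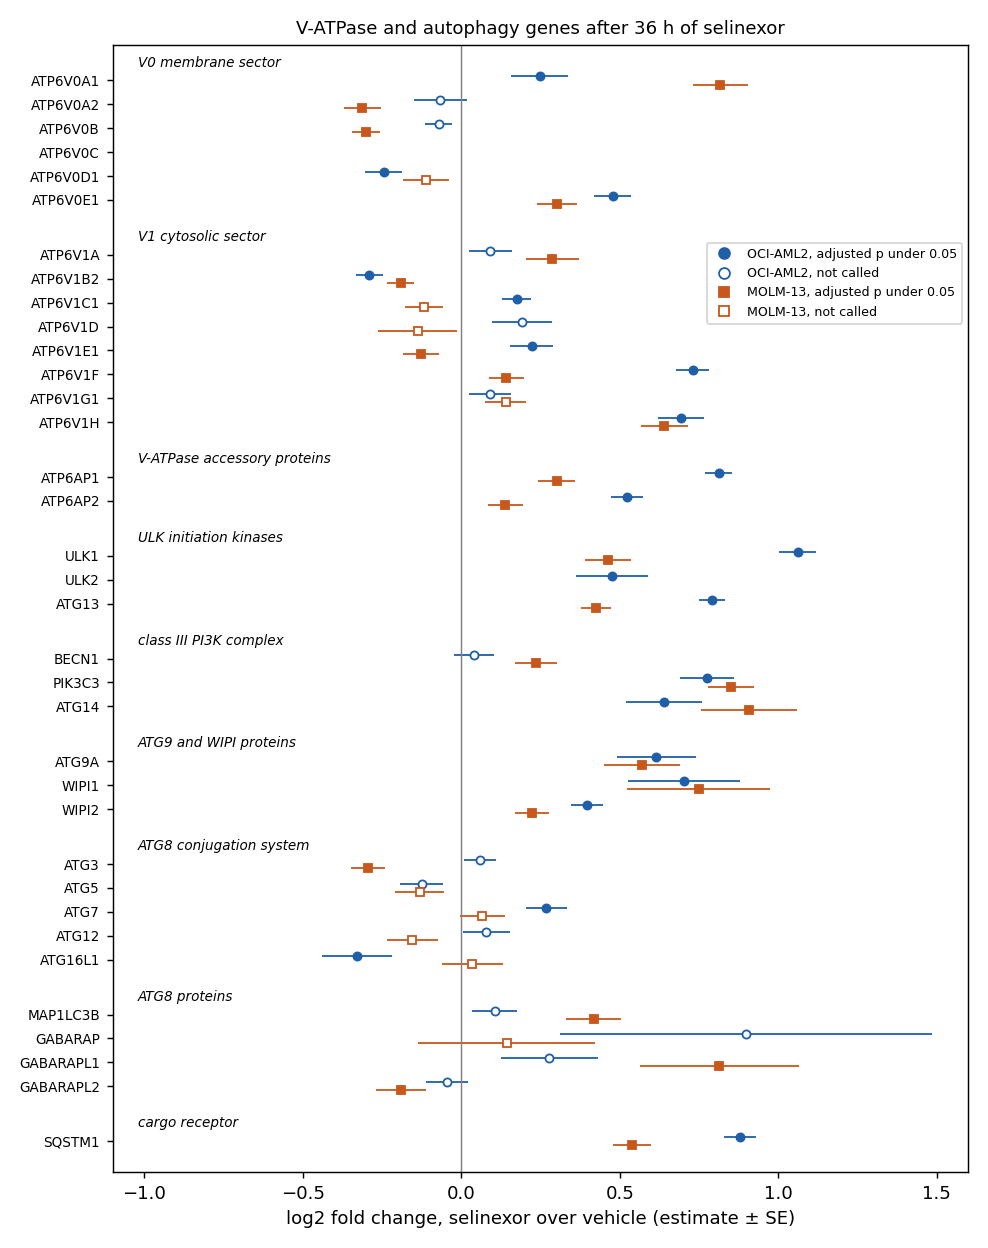
Log2 fold change (selinexor over vehicle, edgeR estimate ± SE) of each member by role, circles for OCI-AML2 and squares for MOLM-13, filled where the adjusted p is under 0.05. ULK1, ATG13, PIK3C3, ATG14, ATG9A, WIPI1 and WIPI2 lie to the right of 0 in both lines (ULK2 was not tested in MOLM-13 and has no point there), from 0.22 for WIPI2 in MOLM-13 to 1.06 for ULK1 in OCI-AML2, while the conjugation genes lie between -0.33 and 0.27.

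ULK1 and ATG13, members of the complex that starts autophagy, rose in both lines. ULK1, the initiating kinase (ENSG00000177169.9, chr12:131894651-131923167), was at 65.6, 60.1 and 66.3 CPM in the OCI-AML2 vehicle libraries and at 137, 139 and 125 in the selinexor libraries. In MOLM-13 it was at 40.7, 43.3 and 44.8 against 61.1, 59.3 and 57.2. The groups did not overlap in either line, as was the case for 66.3% of all genes tested in OCI-AML2 and for 65.5% in those of MOLM-13. Its log2 fold change was 1.06 ± 0.058 (SE, adjusted p = 5.51e-20) in OCI-AML2 and 0.46 ± 0.073 (2.86e-08) in MOLM-13. ATG13, the scaffold that ties ULK1 to its partners, averaged 215 ± 8.32 CPM (SD, n = 3) with vehicle and 372 ± 9.57 with selinexor in OCI-AML2, and 123 ± 2.13 against 165 ± 2.92 in MOLM-13. Its log2 rise was 0.79 ± 0.041 and 0.42 ± 0.047 (SE). ULK2, the second kinase of the family, rose in OCI-AML2 from 14.9, 13.7 and 15.1 to 18.2, 22.6 and 19.9 CPM (log2 fold change 0.48, adjusted p = 0.000364). In MOLM-13 ULK2 was at 0.314 to 1.25 CPM in all 6 libraries and was not tested.

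In the lipid kinase complex, the catalytic subunit and the autophagy-specific subunit rose together, and BECN1 did so in MOLM-13. PIK3R4, a further subunit of the complex outside the 35 members, did not rise. Its log2 fold change was -0.23 in OCI-AML2 (adjusted p = 0.0126) and -0.16 in MOLM-13 (adjusted p = 0.0705, not called). PIK3C3, the kinase itself, was at 23.9, 24.6 and 23.4 CPM with vehicle and at 39.0, 39.3 and 44.6 with selinexor in OCI-AML2, and at 44.7, 35.02 and 38.6 against 70.8, 69.0 and 73.2 in MOLM-13. No selinexor value fell within the vehicle range in either line. The log2 fold changes were 0.77 ± 0.086 and 0.85 ± 0.073 (SE), with adjusted p of 1.68e-10 and 4.38e-19. ATG14 directs the complex to the site where autophagosomes form, and its window is the first of those printed. It rose from 12.9, 10.9 and 14.97 to 20.4, 19.95 and 19.9 CPM in OCI-AML2 and from 9.72, 6.67 and 7.54 to 13.1, 15.4 and 16.1 in MOLM-13, by 0.64 ± 0.12 and 0.91 ± 0.15 on the log2 scale (SE). BECN1, the scaffold of the complex, averaged 62.7 and 64.5 CPM in OCI-AML2 (0.041 ± 0.063, adjusted p = 0.587) and 58.1 and 68.3 in MOLM-13 (0.24 ± 0.066, adjusted p = 0.0013). It shares 17.1% of its exonic bases on the opposite strand, 795 bases with CNTD1 and 300 with PSME3. In MOLM-13, CNTD1 had 159 to 187 counts with vehicle and 204 to 260 with selinexor, and PSME3 2157 to 2464 against 1228 to 1533. The OCI-AML2 counts were 255 to 334 against 197 to 264 for CNTD1, and 2778 to 3600 against 1300 to 1452 for PSME3. The part of the shared bases in the BECN1 values was not tested.

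The ATG9A and WIPI genes, which bring membrane and read the lipid mark, also rose in both lines. ATG9A, the membrane protein of the vesicles that seed autophagosomes, was at 10.7, 12.6 and 10.2 CPM with vehicle and at 17.8, 17.5 and 16.3 with selinexor in OCI-AML2, and at 16.3, 13.1 and 14.97 against 23.0, 25.0 and 17.4 in MOLM-13. The log2 fold changes were 0.61 ± 0.12 and 0.57 ± 0.12 (SE, adjusted p = 3.85e-05 and 1.93e-05), and 38.8% of its exonic bases are shared with AC068946.2. WIPI1 was at 4.84, 5.23 and 5.29 CPM with vehicle and 7.90, 8.41 and 8.73 with selinexor in OCI-AML2, and at 4.38, 3.17 and 3.87 against 5.997, 5.42 and 7.87 in MOLM-13. It rose in both lines with no overlap of the groups (adjusted p = 0.000638 and 0.00254). It shares 28.1% of its exonic bases with ARSG and AC007780.1 on the opposite strand. ARSG had 111 to 133 counts without and 211 to 234 under selinexor in OCI-AML2. Without strand, reads from the shared bases cannot be told apart. WIPI2, a close relative whose exons overlap no other gene, rose by 0.40 ± 0.051 and 0.22 ± 0.054 on the log2 scale (SE, adjusted p = 6.83e-09 and 0.000188).

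Few of the 5 listed members of the conjugation system passed the test. Of these 5, 1 rose (ATG7) and 1 fell (ATG16L1) in OCI-AML2, and 1 fell (ATG3) in MOLM-13. The share called was 40% and 20%, beside 63.1% and 63.6% of all genes tested. Outside the members, 7 other conjugation and ATG4 protease genes were tested. In OCI-AML2, 3 of them rose and 3 fell (85.7% called), and in MOLM-13, 2 rose and 0 fell (28.6% called). ATG3, the E2-like enzyme that hands ATG8 to its lipid, was at 164, 144 and 158 CPM with vehicle and 165, 157 and 162 with selinexor in OCI-AML2, where the groups overlapped (adjusted p = 0.301). In MOLM-13 it went from 112, 105 and 113 to 92.3, 91.7 and 85.8 CPM, with no overlap, and fell by 0.29 on the log2 scale (SE 0.055, adjusted p = 1.59e-06). ATG7, the E1-like enzyme, rose by 0.27 ± 0.065 (SE, adjusted p = 0.00043) in OCI-AML2 and had a log2 fold change of 0.067 (adjusted p = 0.419) in MOLM-13. It shares 18.1% of its exonic bases with VGLL4, whose OCI-AML2 counts were 432 to 629 without and 273 to 321 under selinexor. ATG16L1, which places the conjugation complex on the membrane, went from 20.5, 18.4 and 21.7 to 17.2, 15.6 and 15.4 CPM in OCI-AML2, a log2 fold change of -0.33 ± 0.11 (SE, adjusted p = 0.00902) that reached an adjusted p of 0.0531 without the third vehicle library. ATG5 and ATG12, which are joined to each other, were called in neither line, with log2 fold changes between -0.16 and 0.078.

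Among the ATG8 proteins themselves, no member passed the test in OCI-AML2, and 2 rose and 1 fell in MOLM-13. Of the 4 tested, 0% and 75% were called, beside 63.1% and 63.6% of all genes tested. MAP1LC3B, the LC3 protein most used as a marker of autophagosomes, averaged 44.5 and 47.9 CPM in OCI-AML2 (adjusted p = 0.203). In MOLM-13 it was at 28.2, 32.4 and 30.7 CPM with vehicle and 45.1, 38.7 and 38.4 with selinexor, a log2 rise of 0.42 ± 0.087 (SE, adjusted p = 1.52e-05). GABARAPL1 rose in MOLM-13 from 2.43, 2.95 and 3.35 to 4.38, 6.26 and 4.75 CPM (log2 fold change 0.81, adjusted p = 0.00317); without the second selinexor library the adjusted p was 0.0543. GABARAPL2, the most abundant of the family per kilobase in these counts, averaged 70.6 and 68.2 CPM in OCI-AML2 and 43.6 and 38.2 in MOLM-13. In MOLM-13 GABARAPL2 fell by 0.19 on the log2 scale (adjusted p = 0.0314), a call that 5 of 13 alternative settings did not make. Its rank is limited by GABARAP, whose low counts may be incomplete because 55.7% of its exonic bases are shared. GABARAP had a log2 fold change of 0.90 ± 0.59 (SE, adjusted p = 0.234) in OCI-AML2, and of 1.78 (adjusted p = 1.96e-05) without the third vehicle library, which alone stood at 4.39 CPM.

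SQSTM1, the cargo receptor p62 (ENSG00000161011.19, chr5:179806398-179838078), rose in both lines. Its values were 85.7, 91.4 and 91.3 CPM with vehicle and 169, 165 and 160.1 with selinexor in OCI-AML2, and 68.4, 62.4 and 68.2 against 95.5, 98.9 and 94.2 in MOLM-13. The groups were far apart in both. The log2 fold changes were 0.88 ± 0.051 and 0.54 ± 0.060 (SE), with adjusted p of 2.71e-19 and 1.19e-13. MRNIP and MGAT4B cover 22.0% of the SQSTM1 exonic bases from the opposite strand, and in OCI-AML2 MRNIP had 489 to 645 counts without and 810 to 841 under selinexor.

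In the V-ATPase, the accessory proteins rose in both lines and the sectors were mixed. ATP6AP1 (Ac45, ENSG00000071553.16, chrX:154428632-154436516) is needed to assemble the V0 sector. It was at 145, 147 and 145 CPM with vehicle and 259, 254 and 254 with selinexor in OCI-AML2, and at 74.0, 77.8 and 80.2 against 95.6, 99.0 and 91.2 in MOLM-13. Both shifts exceeded the spread between libraries, with log2 fold changes of 0.81 ± 0.043 and 0.30 ± 0.058 (SE, adjusted p = 1.18e-20 and 3.63e-06). ATP6AP2, the (pro)renin receptor that also joins the pump, averaged 110.3 ± 7.58 CPM (SD, n = 3) with vehicle and 158 ± 2.32 with selinexor in OCI-AML2. In MOLM-13 it averaged 92.8 ± 7.02 and 102 ± 1.29 CPM (adjusted p = 0.0239), a call that 5 of 13 alternatives did not make.

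Of the 8 members of the V1 sector, 4 rose and 1 fell in OCI-AML2, and 3 rose and 2 fell in MOLM-13. The share called was 62.5% in each line, near the 63.1% and 63.6% of all genes tested. ATP6V1H, the regulatory H subunit of V1, rose in both lines, from 35.8, 41.4 and 37.1 to 58.6, 64.9 and 61.7 CPM in OCI-AML2 and from 38.9, 37.0 and 37.0 to 61.9, 56.0 and 58.0 in MOLM-13. Its log2 fold changes were 0.69 ± 0.073 and 0.64 ± 0.075 (SE, adjusted p = 3.14e-11 and 1.40e-12). ATP6V1F, a small subunit of the central rotor, rose in OCI-AML2 from 102, 93.9 and 109 to 165, 169.7 and 171 CPM (0.73 ± 0.052), and in MOLM-13 averaged 93.7 and 103 CPM (0.14 ± 0.056, adjusted p = 0.0218, not called by 5 of 13 alternatives). KCP shares 23.7% of the ATP6V1F exonic bases on the opposite strand, and its OCI-AML2 counts were 554 to 586 without and 790 to 877 under selinexor. ATP6V1B2, the non-catalytic B subunit of the head, was the 1 member called lower in both lines: 255, 262 and 249.7 CPM became 206, 211 and 209.7 in OCI-AML2, and 205, 196 and 201 became 176, 170.5 and 181 in MOLM-13. The falls were 0.29 and 0.19 on the log2 scale (SE 0.041 and 0.043), and no selinexor library reached the vehicle range. ATP6V1A, the catalytic A subunit that alternates with ATP6V1B2, had log2 fold changes of 0.092 (adjusted p = 0.233) and 0.29 (adjusted p = 0.00179). ATP6V1E1, part of the peripheral stalk, rose by 0.22 ± 0.067 (SE) in OCI-AML2 and fell by 0.13 in MOLM-13 (SE 0.057, adjusted p = 0.0419), the 1 member called in opposite directions; the fall was not called in 6 of 13 alternatives. ATP6V1C1 rose by 0.18 in OCI-AML2, and ATP6V1D and ATP6V1G1 were called in neither line.

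In the membrane V0 sector, of 5 members tested, 2 rose and 1 fell in OCI-AML2, and 2 rose and 2 fell in MOLM-13. The share called was 60% and 80%, beside 63.1% and 63.6% of all genes tested. ATP6V0A1, an a subunit that lines the proton path, was at 27.2, 30.7 and 26.9 CPM with vehicle and 33.3, 36.5 and 31.1 with selinexor in OCI-AML2, a difference that 4 of 13 alternatives did not call (0.25 ± 0.089, SE, adjusted p = 0.0147). In MOLM-13 it went from 23.0, 28.2 and 26.0 to 44.1, 45.5 and 46.9 CPM (0.82 ± 0.087, adjusted p = 1.88e-14). Its paralog ATP6V0A2 went the other way in MOLM-13, from 102, 93.1 and 89.9 to 77.4, 73.1 and 79.0 CPM, a log2 fall of 0.31 (SE 0.059, adjusted p = 2.31e-06), and had a log2 fold change of -0.066 (adjusted p = 0.507) in OCI-AML2. ATP6V0B, whose window holds 2 E-boxes, went from 179, 172 and 171 to 141, 139 and 144 CPM in MOLM-13 and averaged 256 and 244 in OCI-AML2 (adjusted p = 0.127). ATP6V0D1, the d subunit between rotor and ring, fell by 0.24 (SE 0.059) in OCI-AML2, and ATP6V0E1, a small membrane subunit, rose by 0.48 ± 0.058 and 0.30 ± 0.062.

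**Figure D3:**
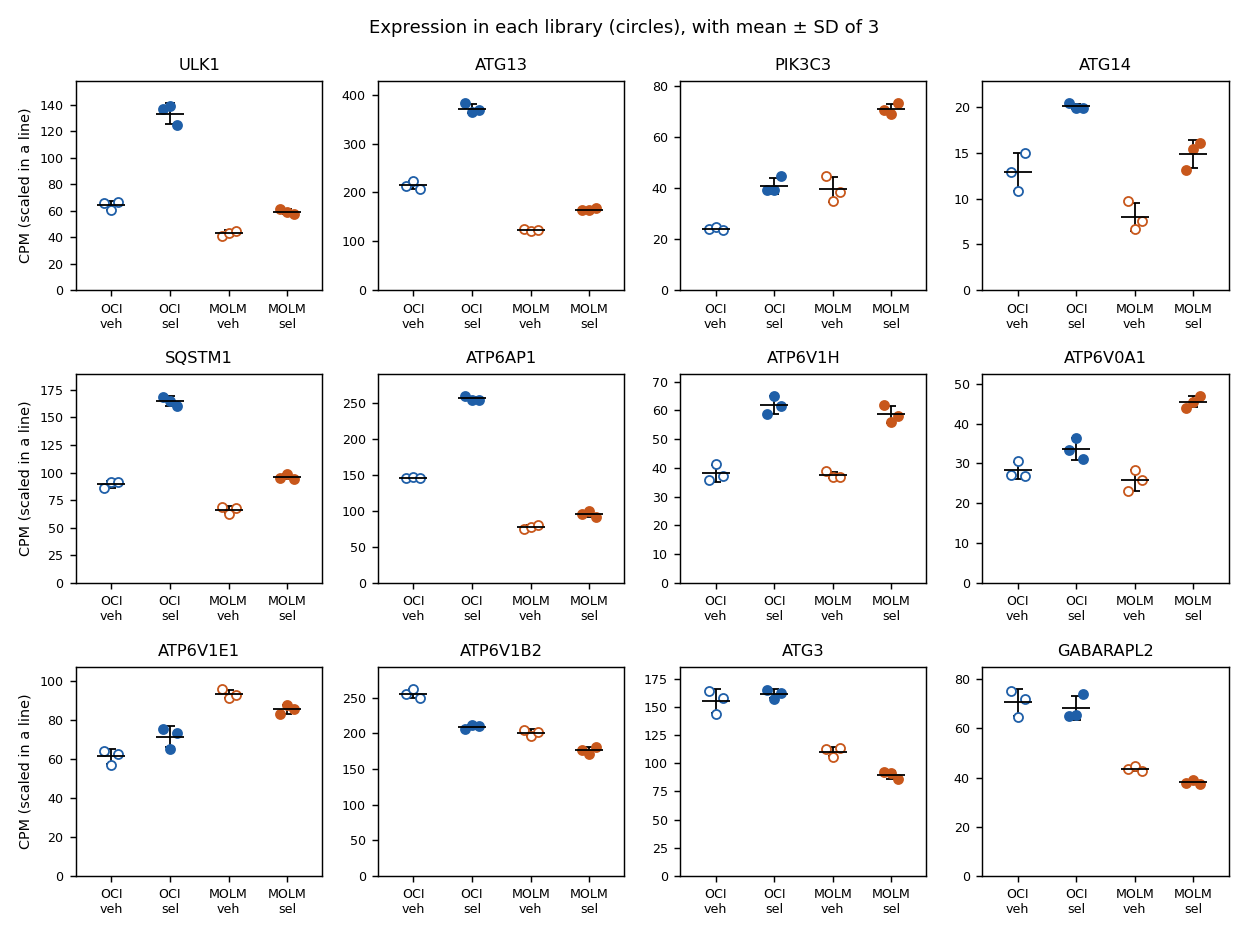
CPM of 12 members in each library (circles, open for vehicle and filled for selinexor, blue for OCI-AML2 and orange for MOLM-13), with the mean and SD of 3 libraries as bars and axes that start at 0. ULK1, ATG13, PIK3C3, ATG14, SQSTM1, ATP6AP1, ATP6V1H and ATP6V0A1 rose in both lines, whereas ATP6V1E1 rose in OCI-AML2 and fell in MOLM-13 and ATP6V1B2 fell in both.

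Of the 33 members tested in both lines, 14 rose in both, 1 fell in both, 1 was called in opposite directions, 12 were called in 1 line only, and 5 were called in neither (ATP6V1D, ATP6V1G1, ATG5, ATG12 and GABARAP). Of the 11202 genes tested in both lines, 21.0% rose in both, 23.6% fell in both and 2.86% were called in opposite directions. The 14 were 6 V-ATPase genes (ATP6V0A1, ATP6V0E1, ATP6V1F, ATP6V1H, ATP6AP1 and ATP6AP2) and 8 autophagy genes (ULK1, ATG13, PIK3C3, ATG14, ATG9A, WIPI1, WIPI2 and SQSTM1). All 8 autophagy genes, and 3 of the 6 V-ATPase genes (ATP6V0E1, ATP6V1H and ATP6AP1), were called in both lines under each of the 13 alternative settings run per line. The window with CACGTG did not go with one direction: ATG14 rose in both lines, ATG3 and ATP6V0B fell in MOLM-13, ATP6V0D1 fell in OCI-AML2, and ATP6V1G1, the member with the CLEAR palindrome, was called in neither.

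The response itself was compared between the lines with an interaction term in 1 model of the 12 libraries. Of the 34 members tested, 1 had a larger log2 fold change in MOLM-13 and 15 a smaller one; over all genes, 30.1% were called, 11.1% larger and 19.0% smaller in MOLM-13. This split depended on the scaling. Over all genes it was 1388 larger and 2380 smaller, but 1654 and 2069 with DESeq2's size factors, 1828 and 1890 with upper quartile scaling, and 1986 and 1758 with total counts only. It also turned when any OCI-AML2 vehicle library (2023 to 2084 larger, 1542 to 1646 smaller) or the second MOLM-13 vehicle library (1904 and 1450) was left out. For the members the counts were 2 larger and 12 smaller with DESeq2's size factors, 3 and 10 with upper quartile scaling, and 3 and 10 with total counts only. In all 18 alternatives, 11 of the 16 differences were called: ATP6V0A1 on the larger side, and ATP6V0B, ATP6V1C1, ATP6V1E1, ATP6V1F, ATP6AP1, ATP6AP2, ULK1, ATG13, ATG3 and SQSTM1 on the smaller. The difference was -0.65 ± 0.091 (SE, adjusted p = 1.25e-08) for ULK1, -0.64 ± 0.078 (1.33e-10) for ATP6V1F, -0.56 ± 0.070 (3.02e-10) for ATP6AP1 and 0.52 ± 0.12 (0.000573) for ATP6V0A1. The differences of PIK3C3 (0.027 ± 0.12), ATG14 (0.22 ± 0.20), ATP6V1H (-0.10 ± 0.11) and WIPI1 (-0.0027 ± 0.35) were not called, and the sign for WIPI1 turned under the 3 other scalings and that for PIK3C3 and ATP6V1H without single libraries.

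**Figure D4:**
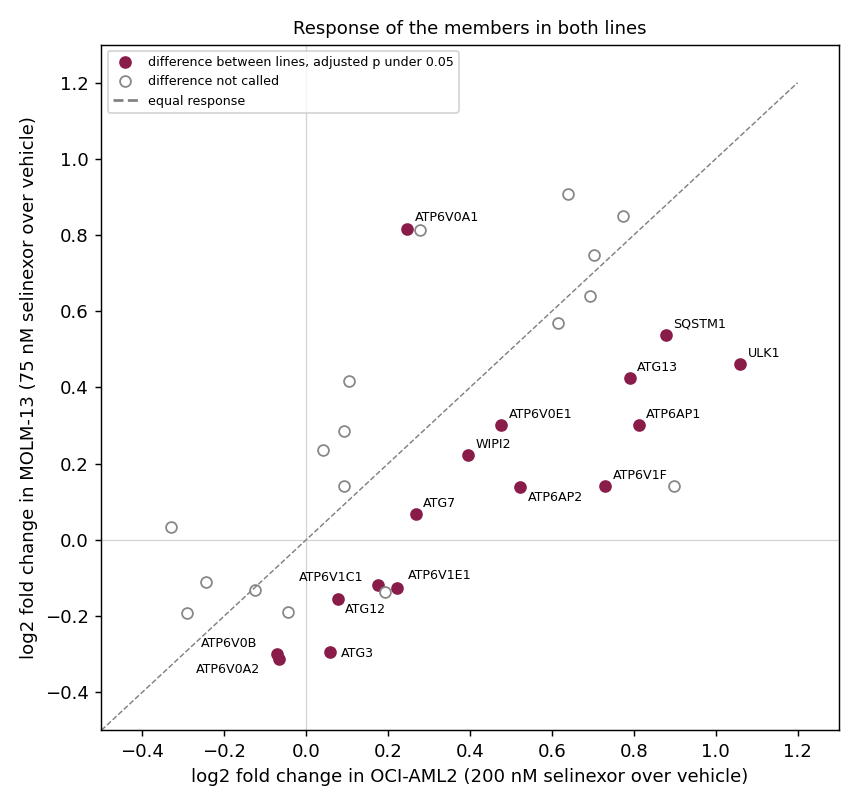
Log2 fold change in MOLM-13 (75 nM) against that in OCI-AML2 (200 nM) for the 33 members tested in both lines, filled and named where the difference between the lines had an adjusted p under 0.05, with a dashed line of equal response. ATP6V0A1 lies above the dashed line and the other 15 named genes below it, while PIK3C3, WIPI1, ATG9A and ATP6V1H lie near it at the upper right. ATG14 lies above it, at 0.64 in OCI-AML2 and 0.91 in MOLM-13, but its difference was not called.

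Where a subunit or protein is encoded by several genes, the share of each gene in the counts per kilobase summed over the family was compared between the groups. With 3 libraries against 3, the smallest p that an exact two-sided permutation test can give is 0.10, and over the 20 shares tested the smallest adjusted p is 0.133, so these are values and not calls. A share can change because another gene of the family moved. In the ATG8 family, MAP1LC3A, an LC3 isoform outside the 35 members, took 2.62, 3.53 and 2.58% with vehicle and 16.8, 16.9 and 15.1% with selinexor in OCI-AML2, and 1.61, 2.33 and 2.09% against 6.27, 4.74 and 7.91% in MOLM-13. GABARAPL2 went from 64.1 ± 1.05 to 51.5 ± 1.40% (SD, n = 3) and from 63.3 ± 3.09 to 50.8 ± 0.851%. MAP1LC3B went from 23.1 to 20.7% in OCI-AML2 and from 25.2 to 30.9% in MOLM-13. Among the a subunits, TCIRG1, the isoform best known from osteoclasts and immune cells, held 84.3% with vehicle and 86.3% with selinexor in OCI-AML2, and 71.0 and 75.1% in MOLM-13. ATP6V0A2 went from 21.6 ± 1.86 to 14.3 ± 0.486% in MOLM-13, while ATP6V0A1 went from 7.33 ± 0.614 to 10.7 ± 0.503%. Shares depend on the annotated exon length: by counts alone TCIRG1 held 65.7 and 69.5% in OCI-AML2 and 45.2 and 51.3% in MOLM-13, ATP6V0A2 went from 43.1 to 30.6% in MOLM-13, and MAP1LC3A went from 1.44 to 8.63% in OCI-AML2 and from 0.994 to 3.04% in MOLM-13. ULK1 held 85.025% of the ULK1 and ULK2 sum with vehicle and 89.5% with selinexor in OCI-AML2, and 99.1 and 99.0% in MOLM-13.

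**Figure D5:**
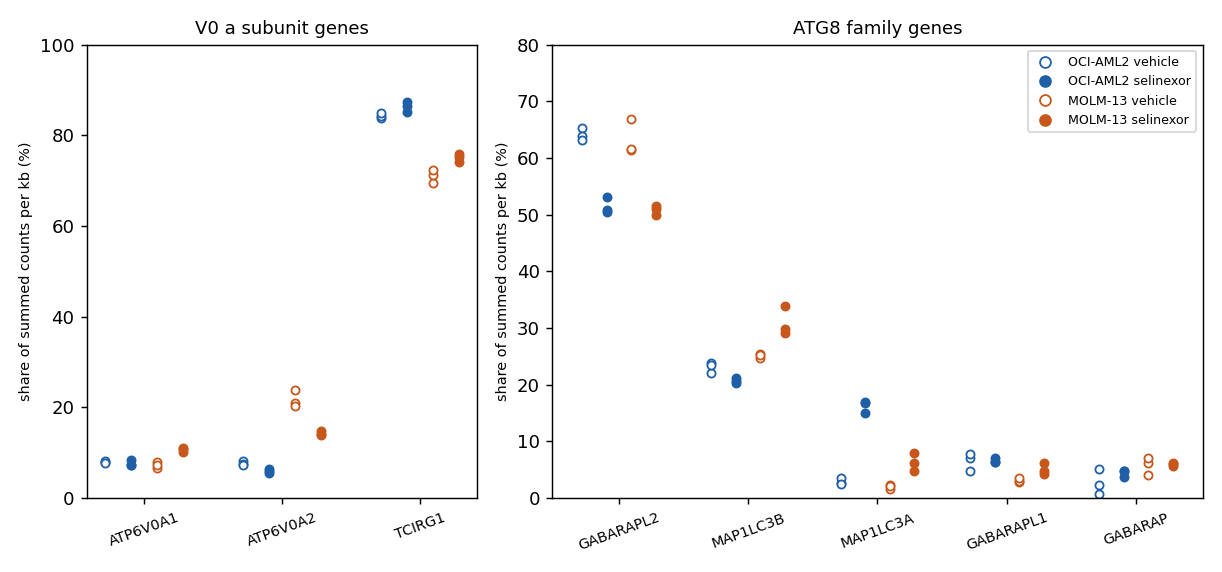
Share of each gene in the summed counts per kilobase of its family (%) for the V0 a subunit genes (left) and the ATG8 family (right), with each library as a point, open for vehicle and filled for selinexor, blue for OCI-AML2 and orange for MOLM-13. The MAP1LC3A share rose from 2.91 to 16.3% in OCI-AML2 and from 2.01 to 6.30% in MOLM-13, and the GABARAPL2 share went down in both lines.

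A further 77 genes of the same pathways were listed by role. In OCI-AML2, 67 were tested, 36 rose and 15 fell; in MOLM-13, 70 were tested, 38 rose and 9 fell, and of the 67 tested in both lines 28 rose and 7 fell in both, beside the 21.0% and 23.6% of all genes given above. The share that rose, 53.7% and 54.3%, was close to that of the 35 members. MAP1LC3A had the largest rise in OCI-AML2, from 1.75, 2.07 and 1.70 to 12.6, 12.6 and 12.2 CPM (log2 fold change 2.74 ± 0.20, SE, adjusted p = 5.98e-16), and rose by 1.72 in MOLM-13 at 0.608 to 3.37 CPM. NCOA4, the receptor that delivers ferritin to autophagosomes, rose by 1.37 and 0.86, and OPTN, a receptor for mitochondria and bacteria, by 2.26 (at 0.332 to 4.10 CPM) and 1.81. WDR45, a WIPI family protein, rose by 1.02 and 1.68, ATG2A, which moves lipid into the growing membrane, by 0.76 and 0.88, and ATG16L2, a paralog of ATG16L1, by 0.79 and 1.14. DMXL2 and ROGDI, which belong to the complex that assembles V1 onto V0, rose by 0.96 and 1.29 in OCI-AML2 and by 0.93 and 0.58 in MOLM-13. On the other side, YKT6, a SNARE for fusion with the lysosome, had log2 fold changes of -0.89 and -0.58, and ATG101, which sits in the complex of ULK1 and ATG13, of -0.61 and -0.50. NCOA7 (-0.83 and -0.37) and TMEM199 (-0.49 and -0.40), both linked to V-ATPase regulation or assembly, fell in both lines, and ATG4A (-0.63) fell in OCI-AML2. ATP6V1C2 fell by 0.19 and 0.50 but shares 29.9% of its exonic bases with other genes, mainly PDIA6, which had 1743 to 6001 counts. Without strand, reads from the shared bases cannot be told apart. Other named genes also share exonic bases with another gene: ROGDI 38.3%, TMEM199 38.0%, ATG101 19.2% and WDR45 13.9%. How the counting treated these bases was not tested.

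Of 7 transcription factors known for these genes, ZKSCAN3 rose in both lines and TFEB was called in neither. TFEB averaged 18.9 and 20.4 CPM in OCI-AML2 and 20.6 and 19.4 in MOLM-13 (adjusted p = 0.394 and 0.529). TFE3 had a log2 fold change of 0.077 (adjusted p = 0.49) in OCI-AML2 and rose by 0.30 (adjusted p = 0.00361) in MOLM-13. MITF fell by 0.61 in OCI-AML2, to 6.08 CPM, and had a log2 fold change of -0.091 (adjusted p = 0.728) in MOLM-13; TFEC rose by 0.73 in MOLM-13 at 2.52 to 6.57 CPM and was not called in OCI-AML2. FOXO3 rose by 0.32 in OCI-AML2 and was not called in MOLM-13, and FOXO1 rose by 0.78 in MOLM-13 at 0.942 to 4.28 CPM and was too low to test in OCI-AML2. ZKSCAN3, described as a repressor of autophagy genes, rose in both lines, by 0.59 ± 0.16 and 0.86 ± 0.14 (SE). These are RNA levels, and where the proteins lay in the cell was not measured.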

How the data were processed

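The 12 libraries were poly(A)-selected and hold no strand information, per the labels' protocols. The submitters' processing notes name STAR, hg38, R 3.6.1 and DESeq2. What tool and annotation the authors counted with is not given in the sources used here. They deposited whole-number counts per gene symbol, 1 table for each line. Each table names its line by an initial and each column its treatment by a letter, and 0 columns of per-sample values were left unmapped. Columns have no replicate number of their own, and libraries are numbered by column only to name them.

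Fold changes were computed with edgeR 4.0.16 (R 4.3.3), with filterByExpr (at least 10 counts, total at least 15), TMM scaling, robust quasi-likelihood fits per line over all genes, and Benjamini-Hochberg adjusted p under 0.05. The difference between the lines was the interaction over 12 libraries on genes in both tables. Its fold changes use 1 scaling over both lines, so they are not exactly the difference of the per-line values. DESeq2 1.42.0 and limma 3.58.1 (voom) served as alternatives, with other scalings, no filter, a joint fit and each library left out. Depth was 8114892 to 11769061 counts per library. Counts were also simulated with 200 genes changed, up or down, and a single dispersion for every gene. Among 11976, 11703 and 12278 genes in the step, 1.5-fold changes were recovered for 83.3% of genes so changed in OCI-AML2, 81% in MOLM-13 and 72.2% for the difference. For 2-fold changes the rates were 94.4%, 95.7% and 82.4%. Far more genes were called in the data, so the simulation did not test the scaling and its rates need not hold there. Exon lengths and overlaps came from GENCODE 29, and promoters from RefSeq (GRCh38.p14).

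The members and lists were chosen with earlier results of these data known. All 35 members are reported. Of the 77 other pathway genes, the 7 transcription factors were named, and in each line the 5 largest rises and 5 largest falls with adjusted p under 0.05 and mean CPM of at least 5. Genes named to list a group of 5 or fewer, TCIRG1, PIK3R4, MPO, FCGR1A, CSF1R and partners that share exons were named after their values were seen.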

Additional observations from a re-analysis of the deposited data

Results flagged for a closer look

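The difference between the lines (MOLM-13 minus OCI-AML2, log2, edgeR interaction, adjusted p under 0.05) was called for 16 members and is given for each as a value. Among V-ATPase genes it was 0.52 for ATP6V0A1, -0.30 for ATP6V0A2, -0.28 for ATP6V0B, -0.22 for ATP6V0E1, -0.34 for ATP6V1C1, -0.40 for ATP6V1E1, -0.64 for ATP6V1F, -0.56 for ATP6AP1 and -0.43 for ATP6AP2. Among autophagy genes it was -0.65 for ULK1, -0.41 for ATG13, -0.22 for WIPI2, -0.40 for ATG3, -0.25 for ATG7, -0.28 for ATG12 and -0.39 for SQSTM1. Line and dose cannot be told apart. The calls for ATP6V0A2, ATP6V0E1, WIPI2, ATG7 and ATG12 were lost in at least 1 of the 18 alternatives.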

How the results depend on the processing

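In OCI-AML2, 19 of the 21 member calls and in MOLM-13 19 of the 24 were made in all 13 alternatives; the calls of ATP6V0A1 and ATG16L1 in OCI-AML2, and of ATP6V1E1, ATP6V1F, ATP6AP2, GABARAPL1 and GABARAPL2 in MOLM-13, were not. With total counts only, 5 members were lower in OCI-AML2, against 3. Members with a larger response in MOLM-13 numbered 1, but 2 with DESeq2's size factors, 3 with total counts only, 3 with upper quartile scaling, and 1 to 4 with each library left out. Signs that turned belong to values that were not called. These were BECN1 in OCI-AML2 (-0.016, total counts only) and GABARAPL2 in OCI-AML2 (0.0096, upper quartile scaling). For the difference between the lines they were ATP6V1G1 (-0.00402 with limma voom, -0.00469 without the filter), ATG5 (0.019 with total counts only, 0.00285 with upper quartile scaling) and WIPI1 (0.035 with the DESeq2 Wald test, 0.033 with its size factors, 0.071 with total counts only, 0.056 with upper quartile scaling).
With each library left out in turn, the log2 values that turned sign ranged as follows: ATG7 in MOLM-13 from -0.024 to 0.11, ATG16L1 in MOLM-13 from -0.041 to 0.10, GABARAP in MOLM-13 from -0.080 to 0.31, ATP6V1G1 for the difference from -0.049 to 0.16, ATP6V1H for the difference from -0.14 to 0.031, ULK2 for the difference from -0.22 to 0.56, PIK3C3 for the difference from -0.0066 to 0.14, ATG9A for the difference from -0.21 to 0.063, WIPI1 for the difference from -0.17 to 0.12 and ATG5 for the difference from -0.088 to 0.059. No paired analysis was possible because the columns carry no replicate numbers. The joint fit could not serve as an alternative for the difference, which is itself a joint fit. The changes in paralog shares moved by more than the spread between libraries in 10 of 40 alternative values, all 10 with counts in place of counts per kilobase and none with a length that left out bases shared with other genes, which was chosen after seeing the data. By counts, MAP1LC3A gained 7.19 percentage points in OCI-AML2, against 13.4, and 2.05 against 4.30 in MOLM-13; the GABARAPL2 change in OCI-AML2 was -7.54 against -12.6; ATP6V0A2 changed by -12.5 against -7.34 in MOLM-13 and by -3.79 against -1.75 in OCI-AML2; and ATP6V0A1 gained 6.51 against 3.33 in MOLM-13. The other 4 kept their direction. Apart from the change of length, the causes were not tested. ATP6V0C had at most 2 counts in any library, under the floor of 3.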
